A study of Mus musculus with 9 samples.

Results

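The centromere-proximal ends of the mouse autosomes were examined here as 1 kb windows within 2 Mb of the first CpG position listed on each of chromosomes 1 to 19. In all, 38000 windows were spanned and 35995 of them held a listed CpG position. Of these, 312 were left out because their mean depth was over 8 reads per listed site in at least 1 pool, which left 35683 windows with 264254 CpG positions, of 2464573 windows in the whole series. Reads from both pools were present in 33889 windows, and from only 1 pool in 1794. The rest of the autosomes, 2274070 windows under the same depth limit, served as the comparison. The choice of windows used position and depth, not methylation.

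DNA was from primordial germ cells of female C57BL/6 embryos at embryonic day 13.5, either wild type (WT, 4 libraries of 1575 to 5251 cells) or Tet1-null (Tet1 -/-, 5 libraries of 1400 to 4700 cells). Bisulfite conversion used a Sigma kit for 2 WT and 2 Tet1-null libraries and a Zymo kit for the other 2 and 3. Sequencing runs 1, 2 and 3 held 1, 1 and 2 WT libraries and 0, 2 and 3 Tet1-null libraries. The labels give neither the Tet1 allele nor the number of embryos behind a library. The deposited tables pool the libraries of each genotype, so kit, run and genotype cannot be told apart, and no difference between pools has a replicate check. Tet1-null libraries 1 and 2 state an identical cell number, and the titles of 2 WT libraries carry an unexplained suffix, so the number of distinct samples is not certain. The deletion of Tet1 was not checked. The pools held 30386353 reads over 13730600 CpG sites (WT, 2.21 reads per site) and 46716079 reads over 16372728 sites (Tet1-null, 2.85). Reads are counted at each CpG site throughout, so 1 sequenced read counts once at every CpG that it covers. All read numbers are therefore sums over sites, not numbers of molecules. Intervals are 95% counting intervals (Wilson for levels, Newcombe for differences). They cover counting error only, not variation between libraries, embryos or chromosomes. As counting intervals they are also too narrow for 2 reasons: neighbouring CpGs lie on the same molecules, and copies made by PCR cannot be told from separate molecules.

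Mouse chromosomes carry the centromere at one end, beside long arrays of satellite repeats that genome assemblies represent as a gap. The first assembled sequence therefore lies next to pericentromeric heterochromatin, which in most somatic cells is heavily methylated at CpGs. Primordial germ cells, from which eggs and sperm descend, lose most of their DNA methylation as they enter the gonad, apart from some repeats and other regions that keep part of it, and Tet1 encodes an enzyme that oxidises 5-methylcytosine. Bisulfite sequencing reads 5-methylcytosine and 5-hydroxymethylcytosine alike.

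The positions matched the label as far as the tables allow. The first listed position lay between 3000010 and 3011313 of build mm9 on all 19 autosomes. The end called proximal is the one with the lowest coordinates. Satellite repeats were not identified, since no mm9 sequence was used. All coordinates are counted from 1, reading the tables as BED.

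Gene starts were located in these windows by matching RefSeq promoter sequences (build GRCm38.p6) to the spacing of the listed CpG positions. Of 15382 sequences tested, 254 found a place, which gave 213 genes on 15 autosomes, while 6 of the same sequences read backwards also found one. The same search over the rest of the autosomes placed 10202 other genes, and there and in the first 2 Mb together 31 sequences read backwards found a single place. Of the placed genes, 3 are shown, picked by their values or, for Dnmt3a, by name. Morc2a had the largest difference between pools and the highest WT level, and Dnmt3a encodes a de novo DNA methyltransferase. Trap1 had the most reads in its shallower pool among the protein-coding genes with no methylated read in either pool. Each line gives the 250 bases before the gene start, 5′ to 3′ on the gene's strand, with each CpG in capitals.
Morc2a (mm9 chr11:3549190-3549439, plus strand, 39 CpGs): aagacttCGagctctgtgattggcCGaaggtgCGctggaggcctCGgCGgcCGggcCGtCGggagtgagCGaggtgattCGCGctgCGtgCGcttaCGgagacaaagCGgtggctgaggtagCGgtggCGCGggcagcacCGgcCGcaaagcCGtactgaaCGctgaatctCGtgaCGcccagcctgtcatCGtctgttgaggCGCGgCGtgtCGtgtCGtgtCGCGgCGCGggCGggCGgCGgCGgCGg
Dnmt3a (mm9 chr12:3806910-3807159, plus strand, 40 CpGs): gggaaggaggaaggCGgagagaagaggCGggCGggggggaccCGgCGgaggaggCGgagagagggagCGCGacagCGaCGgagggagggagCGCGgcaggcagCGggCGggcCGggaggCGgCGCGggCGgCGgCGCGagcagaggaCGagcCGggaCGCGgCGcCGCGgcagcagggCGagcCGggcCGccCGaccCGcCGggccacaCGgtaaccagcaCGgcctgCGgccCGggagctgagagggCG
Trap1 (mm9 chr16:4077811-4078060, minus strand, 23 CpGs): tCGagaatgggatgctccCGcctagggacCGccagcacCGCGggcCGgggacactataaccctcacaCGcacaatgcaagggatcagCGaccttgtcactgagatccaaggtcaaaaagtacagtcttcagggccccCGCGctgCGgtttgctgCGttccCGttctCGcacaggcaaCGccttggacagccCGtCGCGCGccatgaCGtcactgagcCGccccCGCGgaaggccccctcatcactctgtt

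The median over the 32851 promoter sequences of the table was 6 CpGs in the same 250 bases, so all 3 are rich in CpG.

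Methylation was low in the first 2 Mb but higher than in the rest of the autosomes, in both pools. In the WT pool 5.13% of reads were methylated (5.06 to 5.20, 21679 of 422583 reads), against 3.33% in the rest. In the Tet1-null pool the level was 5.64% (5.59 to 5.70, 36815 of 652558 reads), against 4.01%. The proximal level was therefore 1.80 percentage points above the rest in the WT pool (1.73 to 1.87) and 1.63 points in the Tet1-null pool (1.57 to 1.68), or 1.54 and 1.41 times the rest. The opposite, distal 2 Mb of the same autosomes had 3.54% and 4.15%. With only sites at least 100 bp apart within a window, an alternative chosen after seeing the data, the excess over the rest was smaller, 1.06 points in the WT pool and 0.987 points in the Tet1-null pool. Depth was nearly equal in both parts, at 2.20 reads per site in WT and 2.83 against 2.82 in Tet1-null. Mitochondrial DNA, taken as a conversion background, read 1.66% in the WT and 1.29% in the Tet1-null pool.

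The Tet1-null pool was above the WT pool in the first 2 Mb, by 0.512 points (0.424 to 0.598). In the rest of the autosomes it was above by 0.685 points. Summed over autosomes, the proximal difference was smaller than that of the rest (contrast -0.174 points, -0.261 to -0.0866). Taken singly, 11 of 19 autosomes had a smaller proximal difference than the rest of the same chromosome. As a ratio, the Tet1-null level was 1.10 times the WT level in the first 2 Mb and 1.21 times in the rest. With sites at least 100 bp apart the contrast was -0.0777 points, with an interval that includes 0 (-0.185 to 0.0288). With the mitochondrial level subtracted from each pool, the proximal difference was 0.882 points. The same subtraction raises the difference of the rest by the same amount and leaves the contrast unchanged. The ratios above are without it.

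The excess was as large against a rest of matched CpG density. Proximal windows held 7.41 listed CpG positions on average and the remaining windows 7.77. Reweighting the rest to the proximal mix of densities gave 3.31% and 3.97%, and the proximal level was then 1.82 points above it in the WT pool (1.76 to 1.89) and 1.67 points in the Tet1-null pool (1.62 to 1.73).

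The level was highest next to the centromeric end. In steps of 250 kb away from the first listed window, levels in the WT pool were 8.90%, 5.69%, 4.62%, 5.38%, 4.05%, 4.44%, 3.93% and 4.59%. Over the same steps the Tet1-null pool had 9.27%, 6.23%, 5.10%, 5.63%, 4.74%, 4.79%, 4.46% and 5.37%. The first step was thus the highest in both pools, and the order of the others did not follow distance. Just outside the limit, from 2 to 2.25 Mb, levels were 3.85% and 4.49%. Steps beyond it, out to 4 Mb, were not all lower than those inside: the step from 3.5 Mb to 3.75 Mb had 5.18% and 5.74%.

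**Figure D1:**
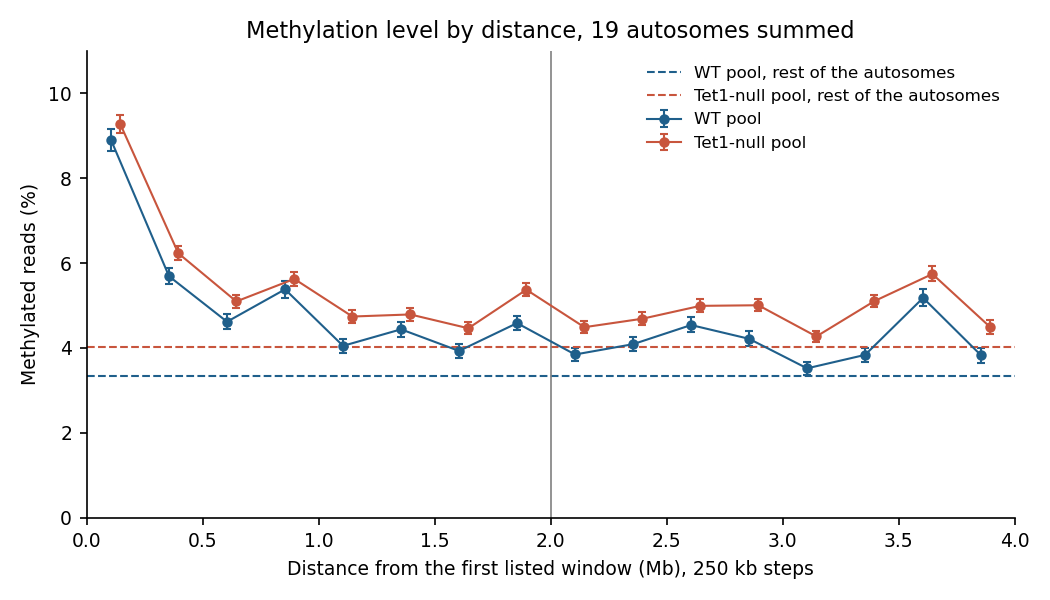
Level of methylated reads (vertical axis, percent) against distance from the first listed window (horizontal axis, Mb) in 250 kb steps, 19 autosomes summed. Points are pools with 95% Wilson intervals, dashed lines are the rest of the autosomes, and the vertical line is the 2 Mb limit. Both pools start near 9% (8.90% and 9.27%) and stay above their own dashed line out to 4 Mb.

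Within the first 250 kb the level fell from each of 5 bins of 50 kb to the next. Intervals of neighbouring bins overlapped only between the second and the third, in both pools. The WT bins had 13.03%, 10.0%, 9.94%, 8.01% and 4.70%, and the Tet1-null bins 12.9%, 10.6%, 10.2%, 8.86% and 5.09%. The bin nearest the end was the highest in both pools, and there the pools differed by -0.141 points, with an interval that includes 0 (-1.10 to 0.807). The first 250 kb was above the rest of its own chromosome on 18 of 19 autosomes in the WT pool and on 17 in the Tet1-null pool. From 1.5 to 1.75 Mb, the step with the lowest level, it was above on 8 and 10.

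The Tet1-null pool was above the WT pool in each of the 8 steps, by 0.245 to 0.787 points. The interval included 0 only in the fourth step (0.245 points, -0.0128 to 0.501). In the first step the difference was 0.372 points (0.0344 to 0.706), and it was positive on 12 of 19 autosomes.

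Chromosomes differed widely. The proximal level was above the rest of the same chromosome on 16 of 19 autosomes in the WT pool, on 15 in the Tet1-null pool, and on 14 in both. In the WT pool it ranged from 2.83% to 9.09% with a median of 5.36%. The highest were chromosome 3 (9.09% WT and 9.88% Tet1-null), chromosome 9 (8.94% and 9.55%) and chromosome 13 (8.42% and 9.13%). The lowest were chromosome 17 (2.83% and 3.66%), chromosome 2 (2.89% and 3.71%) and chromosome 19 (3.05% and 3.67%). Chromosomes 3, 9 and 13 were more than 2 times the rest of their own chromosome, at 2.66, 2.84 and 2.47 times in the WT pool. Chromosomes 17 and 2 were below theirs in both pools, and chromosome 19 was within 0.1 points of it.

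Density differed along with the level between chromosomes. Proximal windows held fewer CpG positions than the rest on 13 autosomes. They averaged 4.87, 5.35 and 6.70 positions on the high chromosomes 3, 9 and 13, against 7.27, 8.99 and 10.99 on the low chromosomes 17, 2 and 19. The part of density in the differences between chromosomes was not tested. On chromosome 14 only 1108 of the windows held a listed position, the fewest, and its 5.67% and 5.61% rest on 5871 and 9859 reads.

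Each autosome was also divided into consecutive 2 Mb segments. The first segment was the highest of its chromosome on 4 autosomes in both pools (chromosomes 3, 13, 15 and 18), and among the 5 highest on 10 autosomes (WT) and 8 (Tet1-null). The median over the 19 first segments was 5.36% in the WT pool, against 3.15% over the 1185 other segments. In the Tet1-null pool the medians were 5.85% and 3.91%. Segments elsewhere reached 16.2% (WT) and 14.97% (Tet1-null), above the highest first segment (9.09% and 9.88%).

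**Figure D2:**
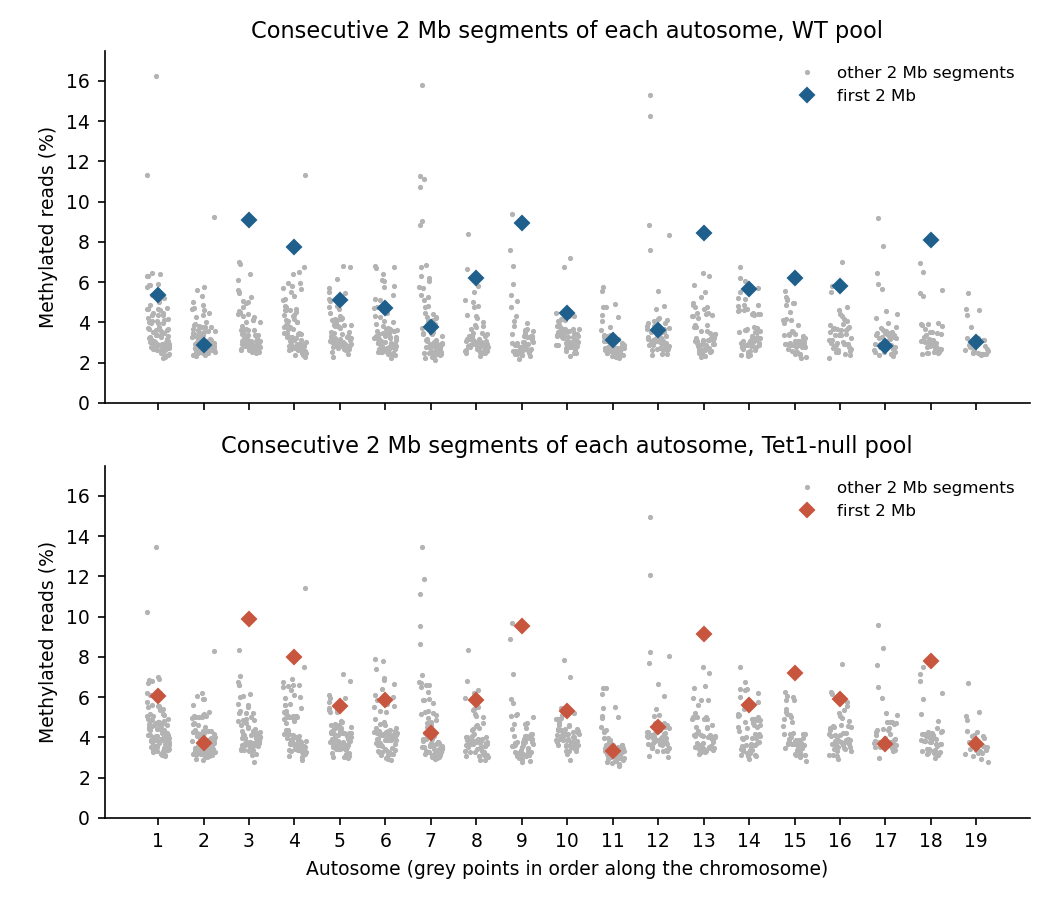
Level of methylated reads (vertical axis, percent) in consecutive 2 Mb segments of each autosome (horizontal axis), WT pool above and Tet1-null pool below. Diamonds are the first 2 Mb and grey points the other segments in order along the chromosome. Diamonds reach 9.09% and 9.88% on chromosome 3 and lie among the grey points on chromosomes 2, 11, 17 and 19.

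The difference between pools also varied between chromosomes. The Tet1-null pool was above the WT pool on 16 autosomes in the first 2 Mb, and 13 of these intervals excluded 0. It was below on 3, none of whose intervals excluded 0. In the rest of the chromosome it was above on all 19, but the rest sums 2274070 windows against 35683. At like size, the difference over the 1185 other 2 Mb segments ranged from -2.77 to 1.88 points, with a median of 0.695. Over the 19 first segments it ranged from -0.370 to 1.15 points, with a median of 0.621. The largest proximal differences were on chromosome 6 (4.70% WT and 5.85% Tet1-null, +1.15 points, 0.762 to 1.53), chromosome 15 (6.20% and 7.17%, +0.972 points) and chromosome 12 (3.60% and 4.53%, +0.922 points). The smallest were on chromosome 8 (6.22% and 5.85%, -0.370 points, -0.765 to 0.0198), chromosome 18 (8.12% and 7.79%, -0.326 points) and chromosome 14 (-0.0629 points). The proximal difference was below that of the rest of the same chromosome on 11 of 19 autosomes.

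**Figure D3:**
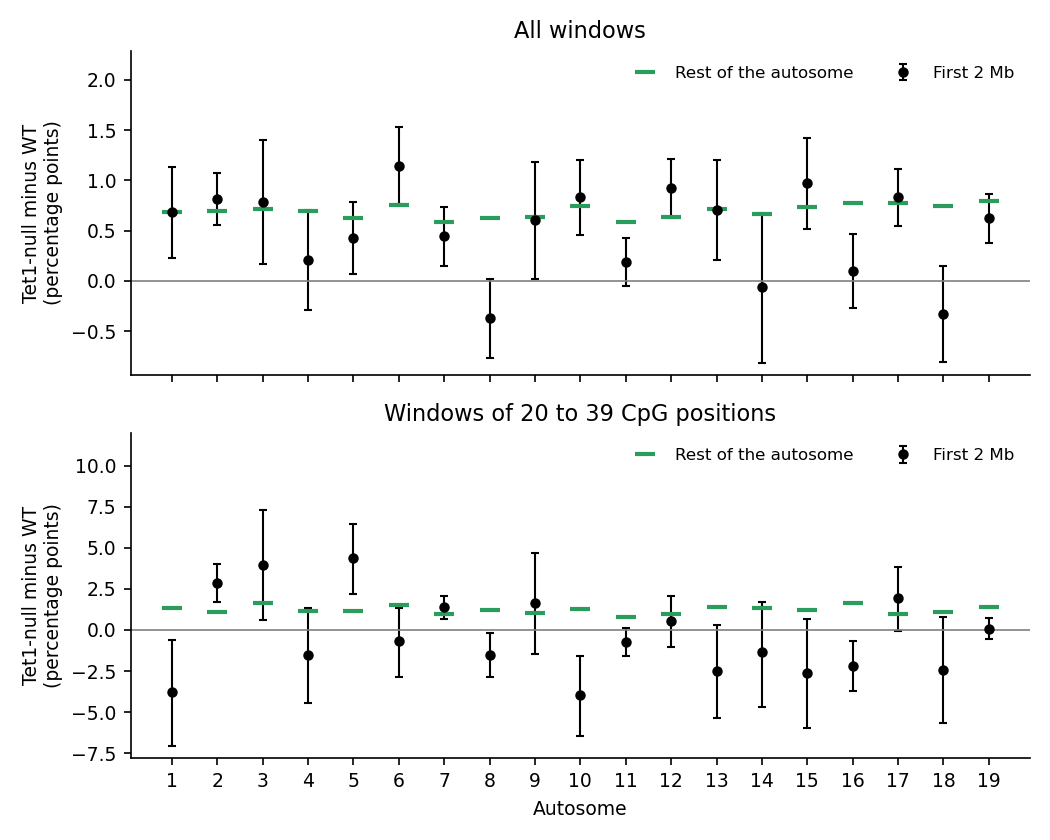
Tet1-null minus WT level (vertical axis, percentage points) for each autosome (horizontal axis), over all windows above and over windows with 20 to 39 listed CpG positions below. Black points are the first 2 Mb with 95% Newcombe intervals and green dashes the rest of the autosome. In the upper plot 16 of 19 points lie above 0, and in the lower plot 8. All green dashes lie above 0, but each sums many more windows than its black point.

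Single 250 kb segments spread further. Of 152 such segments, 149 had at least 500 reads in each pool. The Tet1-null pool was above the WT pool in 111 of them (74.5%, against 82.0% of the 9401 segments of the rest). The interval excluded 0 upward in 44 (29.5%) and downward in 13 (8.72%). Over all 9550 such segments of the autosomes these shares were 39.7% and 2.4%. The highest WT levels were on chromosome 13 from 3250001 to 3500000 (17.1% WT and 16.1% Tet1-null), on chromosome 18 from 3000001 to 3250000 (16.9% and 14.7%), and on chromosome 16 from 3000001 to 3250000 (15.5% and 17.1%). Of these 3, chromosomes 18 and 16 contribute the segment nearest the end, and chromosome 13 the next one. The largest differences were on chromosome 14 from 4501001 to 4751000 (6.30% WT and 11.2% Tet1-null, +4.95 points, 2.30 to 7.39), on chromosome 3 from 3500001 to 3750000 (4.79% and 8.85%, +4.05 points, 2.45 to 5.597), and on chromosome 3 from 4000001 to 4250000 (8.70% and 12.2%, +3.50 points, 1.65 to 5.28). All 3 were higher in the Tet1-null pool.

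By CpG density, the excess over the rest was largest in windows with 20 to 39 listed positions. These held only 9.14% of the proximal WT reads and 9.65% of the Tet1-null reads. Windows with 1 to 9 and 10 to 19 positions, also above the rest, held 52.6% and 35.3% of the WT reads. Windows with 1 to 9 listed CpG positions had 3.65% in the WT and 4.05% in the Tet1-null pool, against 2.88% and 3.34% in the rest. Windows with 10 to 19 had 5.78% and 6.53%, against 3.42% and 4.29%. Windows with 20 to 39, 1122 in number, had 11.8% (11.4 to 12.1) and 11.9% (11.7 to 12.2), against 5.46% and 6.65%. This class was 6.30 points above its counterpart in the WT pool (5.99 to 6.63) and 5.27 points in the Tet1-null pool (5.02 to 5.52). In the WT pool the excess was 5.01 points with sites at least 100 bp apart and 10.1 points in the first 1 Mb alone.

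The densest windows, where CpG islands fall, had low levels as elsewhere. Windows with 40 to 59 positions had 3.32% and 3.14%, against 3.16% and 3.10% in the rest. Windows with 60 or more had 2.85% and 2.09%, against 2.56% and 2.09%. In both classes the intervals of the proximal excess included 0 in both pools (for 60 or more, 0.296 points in WT, -0.144 to 0.811). In the windows with 60 or more, the Tet1-null pool was below the WT pool (-0.764 points, -1.34 to -0.234), as it was in the rest (-0.469 points). There 80 proximal windows with 4764 and 9899 reads were available.

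**Figure D4:**
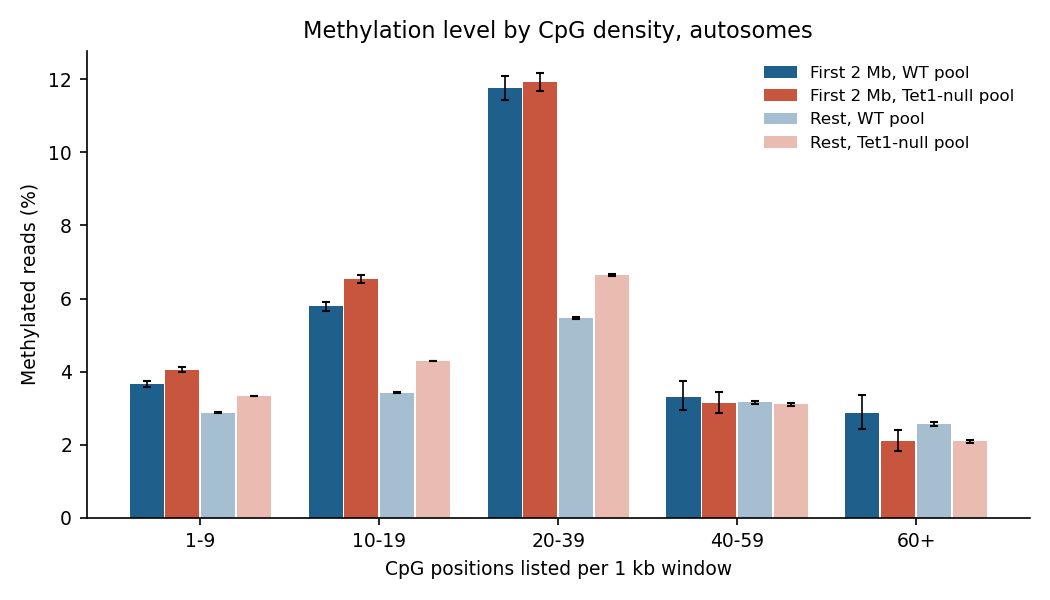
Level of methylated reads (vertical axis, percent) by the number of CpG positions listed per 1 kb window (horizontal axis), in the first 2 Mb and in the rest of the autosomes, for each pool. Bars are summed levels with 95% Wilson intervals. The class of 20 to 39 positions stands at 11.8% and 11.9% in the first 2 Mb, against 5.46% and 6.65% in the rest.

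The difference between pools was small in the windows with 20 to 39 positions. There the Tet1-null pool was 0.155 points above the WT pool (-0.256 to 0.562), against 1.19 points in the rest, and the proximal difference was 1.04 points below that of the rest (interval of the contrast -1.45 to -0.628). In the 2 sparser classes this contrast was -0.0589 points (1 to 9 positions) and -0.118 points (10 to 19), and both intervals included 0. When each site was weighted by the reads of its shallower pool, the contrast in the class of 20 to 39 positions was -0.420 points, and its interval included 0 (-1.01 to 0.169). It also included 0 with only sites of 3 or more reads in both pools (-1.004 points, -2.04 to 0.0265). The near equality was a sum of opposite differences. The Tet1-null pool was above the WT pool on 8 autosomes and below on the remaining 11. In the rest it was above on all 19, but those sums cover 75139 such windows against 1122. The signs are thus not compared at like size. In the first 2 Mb, 4 intervals excluded 0 in each direction. The upward ones were chromosome 2 (2.99% WT and 5.87% Tet1-null), chromosome 3 (31.4% and 35.4%), chromosome 5 (14.8% and 19.2%) and chromosome 7 (3.86% and 5.24%). The downward ones were chromosome 1 (17.9% and 14.1%), chromosome 8 (10.5% and 8.94%), chromosome 10 (14.1% and 10.1%) and chromosome 16 (12.4% and 10.2%).

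Levels of the 20 to 39 class were above those of the same class in the rest of the chromosome on 15 of 19 autosomes in each pool. They were highest on 5 autosomes, at 31.4% and 35.4% on chromosome 3, 30.4% and 27.9% on chromosome 13, 30.4% and 27.9% on chromosome 18, 29.1% and 26.5% on chromosome 15, and 26.8% and 28.4% on chromosome 9. These values rest on 1076 to 1495 WT reads and 1855 to 3044 Tet1-null reads in 32 to 52 windows each.

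Within each of the 3 sparser density classes the level was highest near the end. In the first 250 kb, windows with 1 to 9, 10 to 19 and 20 to 39 positions had 5.36%, 11.3% and 20.4% in the WT pool and 5.51%, 12.005% and 20.5% in the Tet1-null pool. From 1.5 to 1.75 Mb the same classes had 2.97%, 4.29% and 8.49%, and 3.71%, 5.23% and 6.47%. In the 20 to 39 class, the difference between pools ranged over the 8 steps from -2.02 points (1.5 to 1.75 Mb) to 3.44 points (1 to 1.25 Mb, 6.20% WT and 9.64% Tet1-null).

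The level differed between depth classes without a single direction. Windows of up to 2 reads per site had 6.96% in the WT and 7.67% in the Tet1-null pool, and windows over 9 and up to 12 reads, left out by the limit, had 13.02% and 14.3%. Windows over 7 and up to 8 reads per site, just inside, had 8.53% in the WT and 6.77% in the Tet1-null pool (174 windows). Windows over 8 and up to 9, just outside, had 6.58% and 6.93% (84 windows), with overlapping intervals in each pool. Windows over the limit made up 0.867% of listed windows in the first 2 Mb and 0.312% in the rest. The part of depth in these levels was not tested. Among windows of 2 to 3 reads per site, the most common depth, the proximal level was 5.29% in the WT and 5.76% in the Tet1-null pool, against 3.33% and 4.06% in the rest.

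Single sites showed the same order. Of 3262 proximal CpG sites with at least 5 reads in both pools, 83.6% had no methylated read in the WT pool (82.3 to 84.9) and 80.7% had none in the Tet1-null pool (79.4 to 82.1), against 88.1% and 85.2% in the rest. Sites with at least 50% methylated reads were 2.61% (2.11 to 3.21) and 2.58% (2.08 to 3.18), against 0.828% and 0.933%. Most of these 3262 sites thus had no methylated read in a pool, and few had 50% or more. They are the deeply read part of the 264254 proximal positions, which averaged 2.20 and 2.83 reads per site. Whether the highly methylated sites were the same in both pools was not tested.

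For the test of single windows, 4885 proximal windows had 20 or more reads in each pool and 5 or more CpG positions read in both. The median tested window had 27 WT and 36 Tet1-null reads. Levels of at least 50% were found in 85 windows of the WT pool (1.74%) and 76 of the Tet1-null pool (1.56%), against 0.550% and 0.533% of tested windows in the rest of the autosomes. Such windows are called retained below. In the first 250 kb they were 4.29% and 3.31% of those tested. Retained in both pools were 27 windows, 31.8% of the WT list and 35.5% of the Tet1-null list. In the rest of the autosomes the shared windows were 38.9% and 40.1% of the lists.

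The 5 windows retained in both pools with the most reads were as follows. On chromosome 11 from 3949001 to 3950000, 50 of 87 WT reads (57.5%) and 53 of 97 Tet1-null reads (54.6%) were methylated. On chromosome 9 from 4854001 to 4855000, the counts were 41 of 57 and 48 of 61 reads. On chromosome 7 from 3722001 to 3723000, they were 28 of 48 and 40 of 80. The 2 others lay on chromosome 10 from 4265001 to 4266000 (29 of 48 and 35 of 70) and on chromosome 6 from 3737001 to 3738000 (25 of 44 and 35 of 62). These windows held 29 to 38 listed CpG positions. They were picked by summed reads, which rise with the number of positions, so their density does not describe the other retained windows.

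Few windows passed the test of a difference between pools. By two-sided Fisher's exact tests, adjusted by Benjamini-Hochberg over all 372073 tested windows, and a difference of at least 20 points, 9 proximal windows were higher in the Tet1-null pool and 7 were lower. These are 0.184% and 0.143% of the proximal windows tested, against 0.097% and 0.0637% of all windows tested (0.161% in either direction). The test compares the reads of 2 pools, not genotypes. No position of a called proximal window had more than 10 reads in a pool, and a read can count at several positions. At an unadjusted exact p under 0.05, 157 proximal windows were higher (3.21%) and 149 lower (3.05%), against 2.57% and 1.91% of all windows tested. With minimums of 3 positions and 10 reads, 5 of 15227 proximal windows were higher and 10 lower. Over all 1092567 windows tested at those minimums, 264 were higher and 235 lower. With 40 reads, 3 of 604 proximal windows were higher and 8 lower, and over all 43076 windows 229 and 111. Which direction had more calls among the few proximal windows thus depended on the minimum. Over all windows more were higher at each of these minimums. Under a quasi-binomial F test over the sites of a window, 0 proximal windows were higher and 1 was lower, of 69 and 44 over all windows. With pools thinned to equal reads 4 were higher and 4 lower, of 143 and 68. With sites at least 100 bp apart no window was called anywhere, of 329953 tested.

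The 5 largest rises were as follows. On chromosome 13 from 3327001 to 3328000, 0 of 31 WT reads and 26 of 52 Tet1-null reads were methylated (adjusted p = 0.000864, Fisher's exact test), and the methylated reads lay at 8 of its 15 positions. On chromosome 9 from 3317001 to 3318000 the counts were 3 of 27 and 29 of 50. On chromosome 7 from 3923001 to 3924000 they were 5 of 31 and 43 of 70. On chromosome 12 from 3063001 to 3064000 they were 9 of 41 and 59 of 99. On chromosome 6 from 4265001 to 4266000 they were 0 of 26 and 25 of 67.

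The 5 largest falls were as follows. On chromosome 13 from 4981001 to 4982000, 24 of 30 WT reads and 12 of 46 Tet1-null reads were methylated (adjusted p = 0.00785, Fisher's exact test). On chromosome 17 from 4936001 to 4937000 the counts were 14 of 27 and 0 of 42. On chromosome 6 from 3162001 to 3163000 they were 25 of 51 and 5 of 54. On chromosome 4 from 3561001 to 3562000 they were 33 of 65 and 18 of 100. On chromosome 12 from 3357001 to 3358000 they were 28 of 80 and 5 of 79. Under the quasi-binomial test none of these 10 windows passed, with adjusted p from 0.0793 to 0.456.

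Neighbouring windows on chromosome 8, singled out after their values were seen, went in opposite directions. From 3613001 to 3614000, 17 of 78 WT reads and 0 of 85 Tet1-null reads were methylated, and this was the single window that also passed the quasi-binomial test (adjusted p = 0.0145). In the next window, from 3614001 to 3615000, 0 of 49 WT reads and 10 of 29 Tet1-null reads were methylated. Other windows called lower included that of the Morc2a start, on chromosome 11 from 3549001 to 3550000, with 16 of 70 and 2 of 99 reads.

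The gene starts that could be placed in the first 2 Mb were almost free of methylation in both pools. Placing needed at least 8 listed CpGs over the whole matched sequence, so starts poor in CpG are missing. That sequence runs past the 250 bases before the start, so the median of 6 CpGs in 250 bases is not on the same scale. The placed genes lie on 15 autosomes, with none on chromosomes 1, 3, 10 and 18. The proximal WT levels of these 4 were 5.36%, 9.09%, 4.48% and 8.12%. The placed starts therefore do not sample every end, and chromosomes 3 and 18, with high levels, are missing. Of the 213 genes placed, 177 are protein-coding, and 191 had at least 20 reads in each pool within 500 bp of the start. Because neighbouring genes share reads, these 191 make 164 separate places. Their median level was 1.96% in the WT and 1.39% in the Tet1-null pool. Both pools were under 5% at 159 genes, no methylated read was found in either pool at 27, and only Morc2a reached 20% in either pool. Over 8959 gene starts placed in the rest of the autosomes, the medians were 1.64% and 1.56%, and 78.3% were under 5% in both pools, against 83.2% in the first 2 Mb. Summed over the 164 places, 196 of 8335 WT reads (2.35%, 2.05 to 2.70) and 247 of 15018 Tet1-null reads (1.64%, 1.45 to 1.86) were methylated, a difference of -0.707 points (-1.10 to -0.334). In the rest of the autosomes the summed levels were 2.36% and 2.15%, a difference of -0.203 points. With the mitochondrial level (1.66% WT and 1.29% Tet1-null) subtracted from each pool, the proximal difference was -0.336 points. Its interval then included 0 (-0.733 to 0.0370). The value for the rest, -0.203 points, is without this subtraction. The same subtraction would raise it by the same amount, enough to change its sign. Without Morc2a the difference was -0.544 points (-0.933 to -0.179). It was -1.02 points within 250 bp and -0.458 points within 1000 bp.

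**Figure D5:**
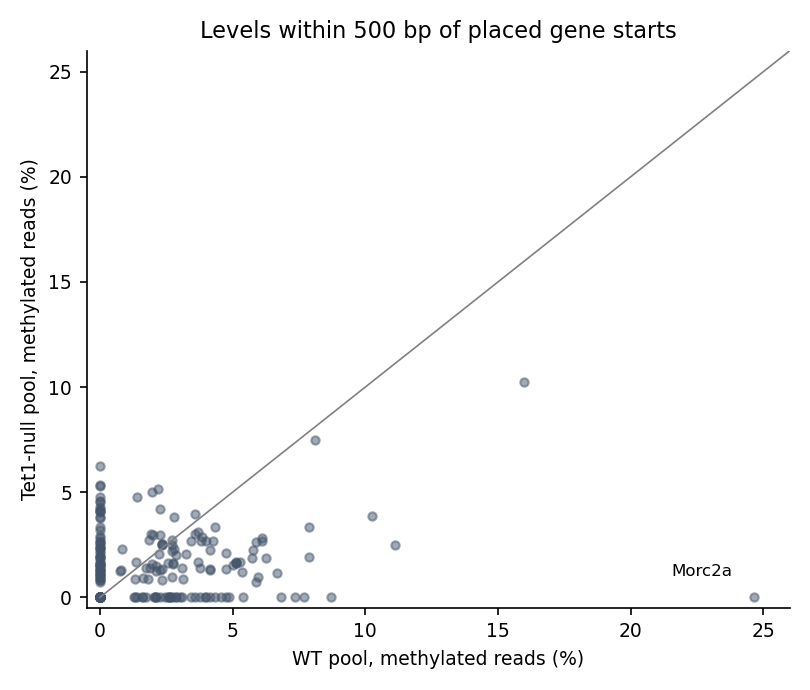
Level of methylated reads within 500 bp of placed gene starts in the first 2 Mb, WT pool (horizontal axis, percent) against Tet1-null pool (vertical axis, percent). Each of 191 points is a gene, and the line marks equal levels. Most points lie under 5% in both pools, and Morc2a lies at 24.6% (WT) and 0 (Tet1-null).

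The Tet1-null level was higher than the WT level at 68 of the 191 genes, lower at 96 and equal at 27. The interval of the difference excluded 0 at no gene upward and at 7 downward (3.66%). Over all 9150 gene starts placed on the autosomes these shares were 1.37% and 3.96%, so the downward share was close to the background. The 7 genes were Morc2a, Ube2s (a ubiquitin-conjugating enzyme that works with the anaphase-promoting complex), Itsn2 (an endocytic scaffold), Ghr (the growth hormone receptor), Ubald1, Ighmbp2 (a helicase) and Mrpl21 (a mitochondrial ribosomal protein). Ighmbp2 and Mrpl21 start back to back on opposite strands and share most of their reads. The counts were small: 9 of 81 WT and 3 of 120 Tet1-null reads at Ube2s, 4 of 96 and 0 of 122 at Itsn2, 3 of 44 and 0 of 71 at Ghr, 2 of 41 and 0 of 112 at Ubald1, 5 of 68 and 0 of 167 at Ighmbp2, and 6 of 69 and 0 of 175 at Mrpl21. These intervals were not adjusted for the number of genes.

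Morc2a encodes an ATPase of the MORC family that acts in heterochromatin silencing. Within 500 bp of its start 17 of 69 WT reads (24.6%, 15.99 to 36.0) and 0 of 79 Tet1-null reads (upper bound 4.64%) were methylated. Of the 17 methylated reads, 12 were single reads at 12 neighbouring CpGs, from 37 bases before the start to the start itself. All but the last of these CpGs lie in the final stretch of the sequence shown above, and over the 12 the Tet1-null pool had 11 reads and none methylated. Single reads at neighbouring CpGs can come from 1 molecule, which the tables do not record. Tug1, a long noncoding RNA gene starting nearby on the opposite strand, shares part of these reads and had 3 of 76 and 0 of 29.

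Dnmt3a had 2 of 50 WT reads (4%) and 3 of 111 Tet1-null reads (2.70%) methylated at the start whose sequence is shown, and Trap1, a mitochondrial chaperone, had 0 of 76 and 0 of 116. The values at other gene starts were as follows, for genes picked by function after the placements and their values were seen. Kmt5b and Kmt5c encode histone H4 methyltransferases whose marks are enriched in pericentromeric heterochromatin. They had 0 of 26 and 3 of 155 reads (Kmt5b) and 3 of 49 and 4 of 142 (Kmt5c). Cenpo, a kinetochore protein, had 2 of 56 and 3 of 100. The meiotic genes Hormad2 and Meig1 had 0 of 25 and 1 of 102, and 0 of 52 and 0 of 91. The somatic genes Pomc and Col1a2 had 0 of 33 and 0 of 59, and 0 of 44 and 1 of 89. The intervals of all these differences between pools included 0.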

How the data were processed

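Per the labels' protocols, DNA was fragmented by Tn5 tagmentation, converted with bisulfite, amplified and sequenced on an Illumina HiSeq 2000. The authors deposited 1 table per genotype, with its libraries pooled. At each CpG site the deposited values are a methylated fraction and a read count, and multiplying them gave whole methylated reads at 100% of sites, within 0.0005 per read. Per the submitters' processing notes, positions are on mm9 and bedtools was run. How reads were aligned and duplicates handled is not given in the sources used here. Reads were filtered: a deposited filter of the authors drops reads with over 1.2% of bases a C not followed by G, which can lower levels in both pools.

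Reads were summed over 1 kb windows with Python 3.11.15, numpy 2.4.6, pandas 2.3.3, numba 0.67.0 and scipy 1.17.1, and plotted with matplotlib 3.10.9. Levels are methylated reads over all reads, both counted at each CpG site. Contrasts of differences were combined by squaring and adding the Newcombe intervals. Fisher's exact test was used per window because the tables hold counts and no replicates. CpG density is the number of positions listed in either pool, which misses positions without a read. The procedures were tested on simulated data.

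The windows and lists were chosen with earlier results of these data known. Named were the 5 largest rises and 5 largest falls among called windows, the 3 highest and 3 lowest chromosomes and those with the 3 largest and 3 smallest differences, and the 3 highest 250 kb segments and the 3 with the largest difference. Under that rule genes were to be named only from an mm9 annotation, which was not used here. The genes were instead placed after the files were seen, outside the rule: each listed position within the promoter sequence had to be a CpG of the sequence, with at least 8 CpGs and 50% of them listed and a single place found. The same search was run over the rest of the autosomes. Chromosome 18 had no sequence to place. Alternatives were other sites, weights, depth limits, distances, window minimums, sizes of difference and tests, and each autosome left out in turn.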

Additional observations from a re-analysis of the deposited data

Results flagged for a closer look

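The X chromosome was outside the comparisons above and also had a high level at its proximal end. Its first 2 Mb had 13.4% methylated reads in WT (of 8356) and 15.1% in Tet1-null (of 13649), against 5.41% and 5.74% in the rest of X. Its 1239 windows held 4.41 listed CpG positions on average, fewer than on most autosomes, and 74 further windows were over the depth limit.

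The 312 proximal windows left out for depth had a level of 11.1% in WT (10.8 to 11.4) and 10.1% in Tet1-null (9.88 to 10.3). Here the Tet1-null pool was lower (-1.02 points, -1.35 to -0.687). They averaged 23.6 and 44.5 reads per site. Windows over the limit elsewhere on the autosomes had 9.07% and 7.36%.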

How the results depend on the processing

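No paired analysis was possible because each table pools the libraries of a genotype. No single value changed sign in the alternatives run, but the difference at gene starts in the rest was not among them. Below, the WT and Tet1-null excess over the rest are given as a pair, then the pair at matched CpG density. They were 1.72 and 1.56, then 1.75 and 1.61 points with sites listed in both pools; 1.61 and 1.41, then 1.64 and 1.46 with 3 or more reads in both; 2.39 and 2.18, then 2.34 and 2.09 with no depth limit; 2.73 and 2.46, then 2.75 and 2.50 over 1 Mb; 1.48 and 1.34, then 1.49 and 1.37 over 3 Mb; and 1.06 and 0.987, then 1.08 and 1.01 with sites 100 bp apart. With autosomes weighted equally they were 2.22 and 2.02. The pool difference was 0.420 points over 1 Mb, 0.411 with sites 100 bp apart and 0.882 with chrM subtracted. Its contrast with the rest was -0.265 over 1 Mb and -0.0777 with sites 100 bp apart, and at matched density -0.246 with no depth limit and -0.245 over 1 Mb.

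For windows of 20 to 39 positions the WT excess was 8.35 points with 3 or more reads, 6.66 weighted by the shallower pool, 10.1 over 1 Mb, 4.82 over 3 Mb and 5.01 with sites 100 bp apart. Its contrast of differences was -0.420 weighted by the shallower pool, -1.48 with no depth limit, -1.75 over 1 Mb and -0.471 over 3 Mb. The cause of these shifts was not tested.

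Called proximal windows were 9 higher and 7 lower as reported (361 and 237 over all 372073 windows tested). They were 5 and 10 of 15227 at 3 positions and 10 reads (264 and 235 over all 1092567). At 40 reads they were 3 and 8 of 604 (229 and 111 over all 43076). There the proximal balance turned, and that over all windows did not. Proximal calls were 9 and 4 at 30 points (305 and 196 over all windows) and 4 and 4 after thinning (143 and 68). They were 0 and 0 with sites 100 bp apart, where no window of the genome was called. By the quasi-binomial test they were 0 and 1 (69 and 44 over all windows).

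Leaving out each autosome in turn, all intervals still excluded 0. The ranges were 0.478 to 0.565 for the pool difference, 1.64 to 1.96 and 1.46 to 1.80 for the WT and Tet1-null excess, 1.66 to 2.01 and 1.498 to 1.86 at matched density, -0.203 to -0.124 and -0.180 to -0.104 for the contrasts, and 5.59 to 7.53 and -1.25 to -0.850 for the windows of 20 to 39 positions. Depth limits single places: the median tested window had 27 and 36 reads.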
